A study of Mus musculus with 35 samples.

Results

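Mouse embryonic fibroblasts that received Jdp2, Glis1 and Sall4 were compared with fibroblasts that received Esrrb, Glis1 and Sall4, day by day, while they were induced towards pluripotency. The comparison takes every library named as the JEGS set (Jdp2, Esrrb, Glis1 and Sall4) minus Esrrb, 8 libraries, and every library named as the set minus Jdp2, 8 libraries, which is 16 of the 35 RNA-seq libraries of the study. Both arms hold 1 library for each day from day 0 to day 7, and both carry Glis1 and Sall4. The fibroblasts came from E13.5 embryos of a cross between Oct4-GFP carrier males (CBA/CaJ × C57BL/6J) and females of a 129 strain, were at passage 2, and were infected with retrovirus for 48 hours before the change to iCD3 medium with a Rock inhibitor. No day has a repeat within an arm, so each arm counts as a lone culture followed over time, and a p-value speaks for the scatter among these libraries and not for other cultures. The treatment label lists all 4 factors and the same length of time for every sample, against the factors and days in the titles. The titles were followed.

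Esrrb is an orphan nuclear receptor that binds DNA as a monomer, sustains the self-renewal network of mouse embryonic stem cells and, like its relatives Esrra and Esrrg, activates genes of mitochondrial respiration. Jdp2 is a basic leucine zipper protein that pairs with Jun proteins on AP-1 and CRE elements and mostly represses transcription there. AP-1 activity holds fibroblast enhancers open, and its decline accompanies reprogramming. Glis1, a Krüppel-like zinc finger factor, and Sall4, a zinc finger partner of the NuRD complex, are the factors that both arms shared.

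The levels of the 4 factors followed the titles. Levels are TMM-scaled CPM, counts relative to library size, and unless said otherwise 3 values in a row are the lowest, the median and the highest of the 8 libraries of an arm. Esrrb (chromosome 12, 86361117 to 86521628, GRCm38) stood at 7.17, 12.8 and 60.5 CPM in the set without Esrrb, against 546, 1944 and 2742 CPM in the set without Jdp2, a log2 difference of -6.76 ± 0.27 (SE; edgeR adjusted p = 1.29e-09). Jdp2, which lies on the same chromosome (85598656 to 85639878), stood at 438, 878 and 1712 CPM without Esrrb, against 10.5, 17.8 and 48 CPM without Jdp2 (log2 5.64 ± 0.24, edgeR adjusted p = 1.45e-09). The ranges of the arms did not overlap for either gene. Both shared factors were also higher without Esrrb on all 8 days. Glis1 had 214, 349 and 566 CPM without Esrrb and 86.1, 247 and 343 CPM without Jdp2 (log2 0.74 ± 0.17, edgeR adjusted p = 0.00477). Sall4 had 1903, 3205 and 5727 CPM without Esrrb and 633, 2332 and 2893 CPM without Jdp2 (log2 0.83 ± 0.15, edgeR adjusted p = 0.000855). The ranges overlapped for both shared factors, and retroviral and endogenous transcripts are counted together. Totals were 1377656 to 1651712 counts per library without Esrrb and 1865680 to 3333579 without Jdp2, and the mean fragment length implied by the length columns was 201.6 to 205.7 bases without Esrrb and 206.7 to 210.5 bases without Jdp2. Depth, fragment length and the level of the shared factors therefore differ along with the missing factor, and the labels name more than 1 kit and run without assigning them, so these and the missing factor cannot be told apart.

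**Figure D1:**
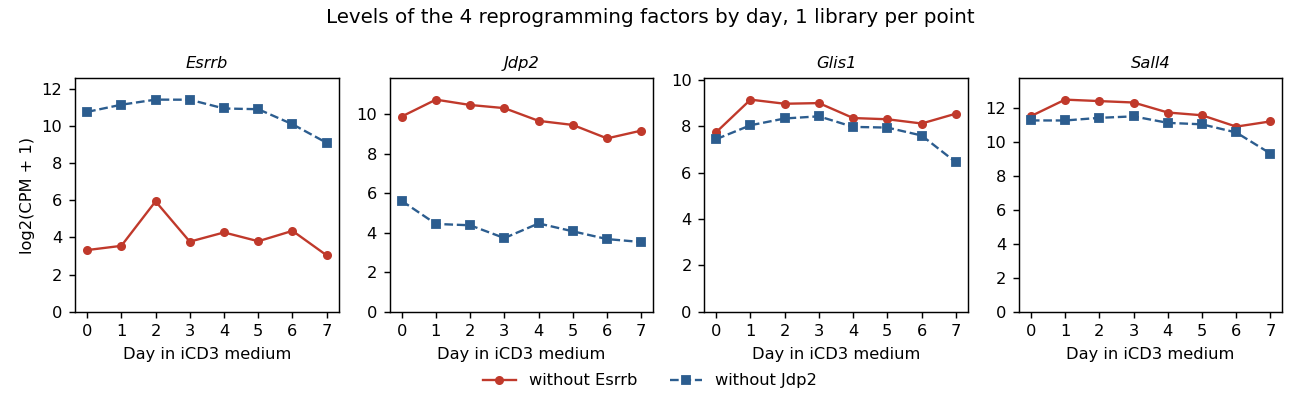
Level of the 4 factors (log2 of CPM + 1) against the day in iCD3 medium, 1 library per point, in the set without Esrrb (red circles) and the set without Jdp2 (blue squares). Esrrb lay at 7.17 to 60.5 CPM without Esrrb and at 546 to 2742 CPM without Jdp2, Jdp2 showed the opposite order, and Glis1 and Sall4 were higher without Esrrb on every day.

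Of 16592 genes tested, 3923 (23.6%) passed an edgeR adjusted p of 0.05, of which 1630 (9.82% of genes tested) were higher and 2293 (13.8%) were lower without Esrrb. The median log2 difference was 0.82 among the genes that were higher, -0.94 among those that were lower and 0.01 over all genes. The libraries of the arms did not overlap in 265 genes (1.6%). Among the genes that passed, the arms were closest on day 0. There 2749 of the 3923 genes had the sign of their fitted difference, with a median of 0.25 for the genes that were higher and -0.33 for those that were lower. On day 4 the sign was shared by 3848 genes and the medians were 0.94 and -1.10. These genes were called from a fit over the same days, so much of the agreement in sign is set by that choice. Fitted with no day term, 2103 genes passed. Because these are bulk samples, fewer cells of a type and less RNA per cell cannot be told apart in anything that follows.

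**Figure D2:**
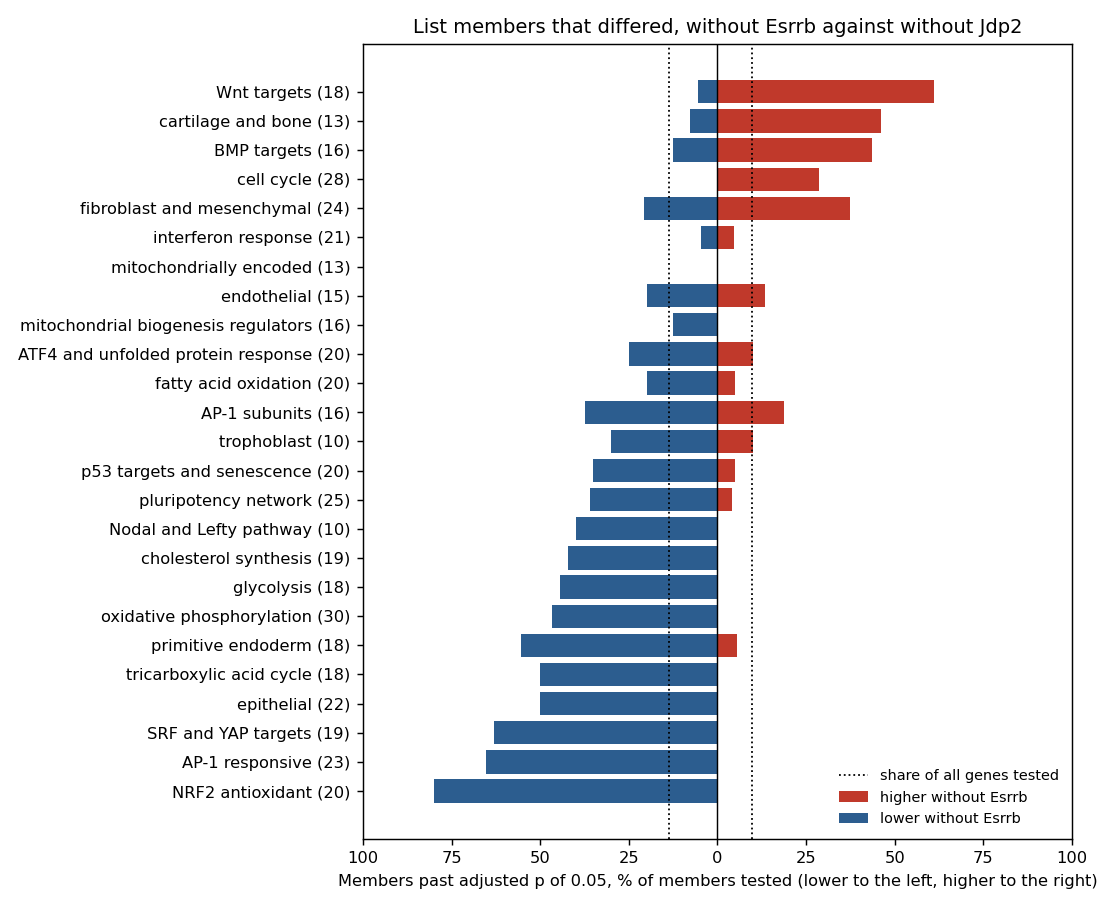
Share of the tested members of each gene list with 10 or more tested members (number in brackets) that passed an edgeR adjusted p of 0.05, higher without Esrrb to the right (red) and lower to the left (blue). Dotted lines mark the shares over all genes tested, 9.82% and 13.8%; Wnt targets reach furthest to the right, with 11 of 18, and NRF2 antioxidant genes furthest to the left, with 16 of 20.

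Pluripotency genes that passed were mostly lower without Esrrb. Of 25 tested members of the network, 9 were lower and 1 was higher without Esrrb, with a median log2 difference of -0.72. Over all genes tested, 13.8% were lower and 9.82% were higher. Tfcp2l1, a naive state factor that acts beside Esrrb in embryonic stem cells, had 0, 2.09 and 3.51 CPM without Esrrb and 3.04, 32.8 and 89.9 CPM without Jdp2. It was lower on all 8 days (log2 -4.03 ± 0.32, edgeR adjusted p = 8.56e-07), with ranges that met only at their edges. Sox2, a core pluripotency factor, had 0, 27.3 and 40.2 CPM without Esrrb and 2.43, 79.9 and 114 CPM without Jdp2, and was lower on all 8 days too (log2 -1.63 ± 0.19, edgeR adjusted p = 2.63e-05). Klf5, which supports self-renewal, showed the same order with 22.2, 27.3 and 34.6 CPM without Esrrb and 31.6, 97.8 and 124 CPM without Jdp2 (log2 -1.70 ± 0.17, edgeR adjusted p = 7.61e-06). Nr0b1, a nuclear receptor of the naive state, was close to absent without Esrrb, at 0, 0 and 1.33 CPM, against 0, 4.74 and 12.3 CPM without Jdp2 (log2 -4.33 ± 0.85, edgeR adjusted p = 0.00225). Sall1, a Sall4 relative, went the other way. It had 5.7, 98.7 and 187 CPM without Esrrb and 3.64, 16.2 and 32.7 CPM without Jdp2, higher on all 8 days (log2 2.33 ± 0.36, edgeR adjusted p = 0.00022). The lower count was 5 with DESeq2, with limma on TPM and with no day term.

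Over the whole week Nanog, Klf4, Zfp42, Nr5a2 and Cdh1 did not pass, with log2 differences of -0.62, -0.72, -2.36, -0.90 and -0.11. Klf4 stayed short of the threshold in 11 of 17 alternatives and Zfp42 in 14, and both passed in the others. Dppa5a, a marker of the naive state, rested on a single library. Its 8 libraries without Esrrb held 3 counts in all, and the day 7 library without Jdp2 reached 37.8 CPM, while the median there was 0.304 CPM. The log2 difference of -4.30 ± 0.89 (edgeR adjusted p = 0.00469) was -2.82 and no longer passed once day 7 was left out. Among genes of Nodal signalling, which patterns the early embryo, 4 of 10 were lower and none was higher (median -0.84), namely the Nodal co-receptor Tdgf1, the secreted antagonist Lefty2, the receptor Acvr1b and the inhibitory Smad7. Acvr1b had 10.0, 18.8 and 44.2 CPM without Esrrb and 27.5, 44.4 and 76.1 CPM without Jdp2 (log2 -1.02 ± 0.18, edgeR adjusted p = 0.000752). The Nodal count was 2 with DESeq2, limma, no day term or an added arm slope, and 2 without day 4.

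Primitive endoderm markers, genes of the extraembryonic lineage that can appear as a side branch of reprogramming, were mostly lower without Esrrb. Of 18 tested, 10 were lower and 1 was higher, with a median of -1.16. Sox17, a transcription factor of endoderm and of arterial endothelium, had 0, 0.602 and 8.97 CPM without Esrrb and 0, 10.5 and 76.1 CPM without Jdp2, lower on 7 of 8 days (log2 -3.26 ± 0.41, edgeR adjusted p = 4.06e-05). Gata6, which specifies the lineage, had 5.17, 9.93 and 19.7 CPM without Esrrb and 11.8, 30.0 and 42.1 CPM without Jdp2 (log2 -1.35 ± 0.22, edgeR adjusted p = 0.00043). The ranges overlapped for both genes. Those of Col4a1, a basement membrane collagen chain, did not, at 312, 674 and 1715 CPM without Esrrb and 1864, 2171 and 2953 CPM without Jdp2 (log2 -1.69 ± 0.24, edgeR adjusted p = 0.000136). Its partner chain Col4a2 differed by -1.57 ± 0.22 (edgeR adjusted p = 0.000103) and the laminin chain Lamb1, again without overlap, by -0.88 ± 0.11 (edgeR adjusted p = 3.62e-05). Matrix genes of this list are expressed by fibroblasts as well. Apob, which builds lipoprotein particles, was the member that was higher, on 7 of 8 days, with 0, 35.8 and 101 CPM without Esrrb and 0, 11.5 and 32.7 CPM without Jdp2 (log2 1.56 ± 0.25, edgeR adjusted p = 0.000398). Hnf4a and Afp, later endoderm genes, were below the filter, with 0 and 1 counts in all without Esrrb and 20 and 22 without Jdp2.

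Epithelial genes were lower without Esrrb in 11 of 22 tested and higher in none (median -1.07). Krt19, a keratin of simple epithelia, had 28.7, 74.7 and 165 CPM without Esrrb and 70.4, 478 and 705 CPM without Jdp2. It was lower on 7 of 8 days, day 0 being the exception (log2 -2.44 ± 0.43, edgeR adjusted p = 0.000678). Cldn4, a tight junction claudin, had 3.26, 33.6 and 70.3 CPM without Esrrb and 4.86, 196 and 346 CPM without Jdp2 (log2 -2.45 ± 0.34, edgeR adjusted p = 9.58e-05). Dsp, the desmosomal plaque protein desmoplakin, had 22, 97.1 and 188 CPM without Esrrb and 28.5, 534 and 656 CPM without Jdp2 (log2 -2.0 ± 0.28, edgeR adjusted p = 9.22e-05). The other lower members were Cldn6, Pkp3, Jup, Krt8, Krt18, Spint1, Spint2 and Epcam. Epcam, an adhesion protein of epithelia and pluripotent cells, stood at 0.628, 3.68 and 11.2 CPM without Esrrb and 0.471, 8.65 and 66.5 CPM without Jdp2 (log2 -1.94 ± 0.35, edgeR adjusted p = 0.00081). Not every epithelial gene went this way over the whole week. Cdh1 differed by -0.11, Ocln by 0.03, and the epithelial splicing and transcription factors Esrp1, Esrp2 and Grhl2 by 1.07, 0.65 and 0.08, none of which passed. Esrp2 stayed short of the threshold in 12 of 17 alternatives and passed in the others. The sign changed with day for Cdh1 and Ocln. Cdh1 differed by 2.57 on day 1 and -2.70 on day 6, and Ocln by 1.51 on day 2 and -2.76 on day 7. The lower count was 7 with limma on TPM and with no day term.

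**Figure D3:**
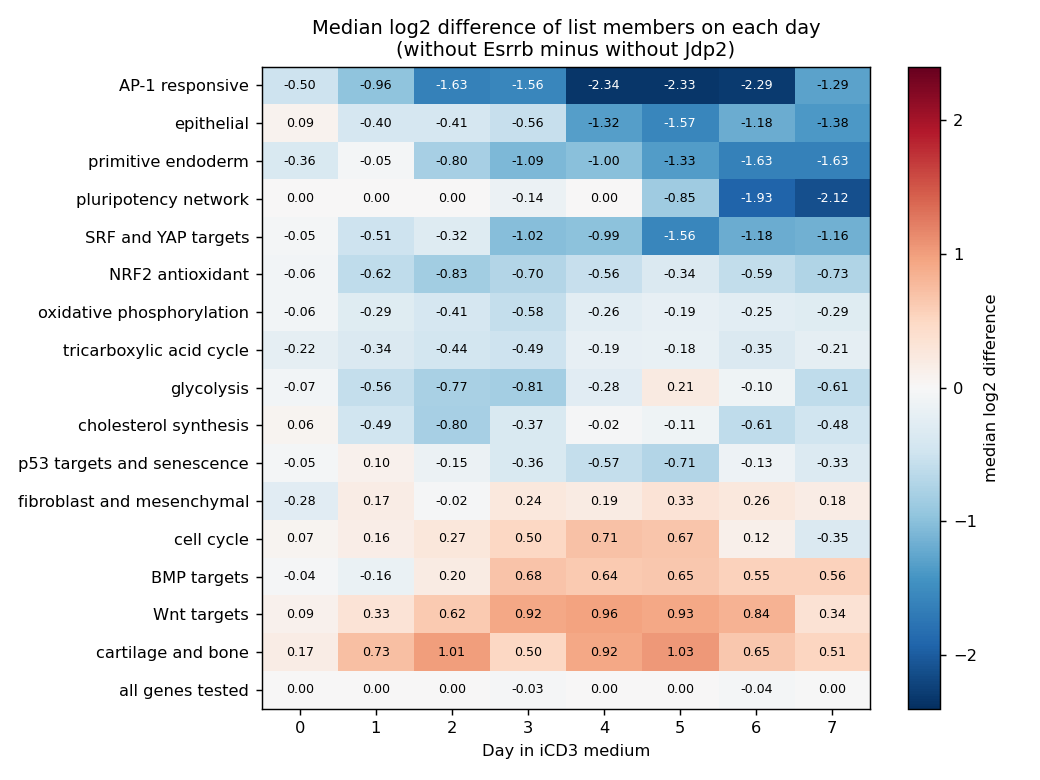
Median log2 difference (without Esrrb minus without Jdp2) of the tested members of 16 lists and of all genes tested, on each day in iCD3 medium, red where higher and blue where lower without Esrrb. AP-1 responsive genes go to -2.34 on day 4, the pluripotency list reaches -2.12 on day 7, and the median of all genes lies between -0.043 and 0.

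AP-1 responsive genes were lower in the arm that carried Jdp2 and lacked Esrrb. Of 23 tested, 15 were lower without Esrrb and none was higher, with a median of -1.91. Spp1, the secreted glycoprotein osteopontin, had 32.4, 46.1 and 73.1 CPM without Esrrb and 112, 670 and 983 CPM without Jdp2, with no overlap (log2 -3.57 ± 0.23, edgeR adjusted p = 1.38e-07). Il11, a cytokine of the IL-6 family, had 2.92, 13.3 and 237 CPM without Esrrb and 25.8, 175 and 461 CPM without Jdp2 (log2 -3.44 ± 0.40, edgeR adjusted p = 2.17e-05). Its ranges overlapped, since the libraries of days 0 and 1 without Esrrb, the highest of that arm, lay above the day 7 library without Jdp2. Plaur, the urokinase receptor, had 7.07, 13.8 and 95.3 CPM without Esrrb and 22, 129.7 and 174 CPM without Jdp2 (log2 -2.60 ± 0.28, edgeR adjusted p = 1.22e-05). Hbegf, a ligand of the EGF receptor, had 7.17, 18.4 and 156 CPM without Esrrb and 35.4, 162 and 247 CPM without Jdp2 (log2 -2.57 ± 0.31, edgeR adjusted p = 3.02e-05). Both were lower on all 8 days. Lif, the cytokine that maintains mouse embryonic stem cells, had 1.3, 3.79 and 12.2 CPM without Esrrb and 9.09, 12.3 and 17.7 CPM without Jdp2, lower on 7 of 8 days (log2 -1.57 ± 0.33, edgeR adjusted p = 0.00248). The matrix metalloproteases of the list did not pass, with log2 differences of 0.63 for Mmp3, -0.82 for Mmp9, -0.48 for Mmp10 and -0.94 for Mmp13. Mmp9 stayed short of the threshold in 14 of 17 alternatives and passed in the others. The chemokines Ccl2 and Cxcl1, the EGF family ligands Areg and Ereg, and Plau, Timp1, Cd44, Dusp1 and Phlda1 were also lower. The lower count was 8 with no day term.

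An AP-1 element occurs in 5 promoters of the list, and those of Plaur and Lif are printed because they belong to the genes that were lower. The windows run from 250 bases before to 50 bases after the start in the RefSeq table of GRCm38.p6, capitals mark TGANTCA (searched on both strands), and the motif begins 69 bases before the start in Plaur and 228 bases before it in Lif. Plaur lies at chr7:24462233-24462532 and Lif at chr11:4257318-4257617, both on the plus strand.
Plaur: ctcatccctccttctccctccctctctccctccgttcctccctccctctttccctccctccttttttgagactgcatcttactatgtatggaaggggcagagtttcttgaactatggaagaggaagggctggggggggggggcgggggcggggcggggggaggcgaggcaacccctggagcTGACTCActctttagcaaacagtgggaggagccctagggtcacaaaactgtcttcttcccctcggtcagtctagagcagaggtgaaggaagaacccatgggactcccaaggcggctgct
Lif: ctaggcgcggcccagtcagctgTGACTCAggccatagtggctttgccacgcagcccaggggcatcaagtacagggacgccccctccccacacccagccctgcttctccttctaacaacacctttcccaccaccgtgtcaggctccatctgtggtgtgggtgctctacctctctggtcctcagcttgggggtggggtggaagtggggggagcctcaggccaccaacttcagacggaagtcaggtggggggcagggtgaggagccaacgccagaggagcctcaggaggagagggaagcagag
TGANTCA occurred in 571 of the 11446 promoters matched to tested coding genes (4.99%) and TGACGTCA, the CRE element, in 363 (3.17%), with 9 promoters holding both. The table held 15 of the 23 AP-1 responsive genes, of which 5 had TGANTCA. As it holds only 78.9% of all tested coding genes and 65.2% of this list, a comparison of shares is void, and the matches are descriptions of sequence, not sites of binding.

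The AP-1 subunits themselves split. Leaving Jdp2 aside, 6 of 16 tested were lower and 3 were higher without Esrrb (median 0.05). Fosl2, a Fos family partner of Jun proteins, had 15.3, 22.1 and 36.2 CPM without Esrrb and 34.2, 48.5 and 135 CPM without Jdp2 (log2 -1.18 ± 0.17, edgeR adjusted p = 0.000138). Atf3, a stress-induced repressor that resembles Jdp2, had 1.25, 5 and 9.56 CPM without Esrrb and 6.17, 14.3 and 31.3 CPM without Jdp2 (log2 -1.74 ± 0.26, edgeR adjusted p = 0.000171). Maff, a small Maf protein, had 4.09, 10.4 and 51.3 CPM without Esrrb and 22, 40.3 and 65.7 CPM without Jdp2 (log2 -1.72 ± 0.29, edgeR adjusted p = 0.000492). Fosb, Fosl1 and the small Maf protein Mafk were the other lower members, and Fosl2 lost its call with limma. Jund and Batf were among the higher members. Jun differed by 0.02, Junb by -0.33 and Fos by 0.89, and none of these passed. Fos stayed short of the threshold in 9 of 17 alternatives and Junb in 14, and both passed in the others. The counts were 3 lower and 1 higher with no day term.

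Genes driven by SRF and YAP, which link the actin cytoskeleton to transcription, were lower without Esrrb in 12 of 19 tested and higher in none (median -0.78). Myh9, non-muscle myosin heavy chain, had 363, 582 and 2710 CPM without Esrrb and 1561, 2110 and 3689 CPM without Jdp2 (log2 -1.77 ± 0.20, edgeR adjusted p = 1.55e-05). Cald1, the actin-binding caldesmon, had 47.9, 93 and 1074 CPM without Esrrb and 311, 446 and 2038 CPM without Jdp2 (log2 -1.94 ± 0.20, edgeR adjusted p = 6.66e-06). Ccn2, a matrix signal induced by YAP, had 18.7, 31.8 and 795 CPM without Esrrb and 57.2, 121 and 1073 CPM without Jdp2 (log2 -1.54 ± 0.23, edgeR adjusted p = 0.0002). All 3 were lower on each of the 8 days, and all 3 had their highest level on day 0 in both arms. The ranges overlapped through the day 0 library without Esrrb, and for Cald1 through that of day 1 as well. Srf itself differed by 0.14, which did not pass. The count was 1 with no day term.

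Nuclear genes of oxidative phosphorylation, the respiratory chain and ATP synthase, were lower without Esrrb in 14 of 30 and higher in none. The differences were small, with a median of -0.31, and 28 of the 30 lay below 0. Cox5a, a subunit of cytochrome c oxidase, had the largest, with 46.6, 87 and 141 CPM without Esrrb and 94.3, 187 and 224 CPM without Jdp2 (log2 -0.95 ± 0.12, edgeR adjusted p = 3.28e-05). Atp5b, the catalytic subunit of ATP synthase, had 1042, 1258 and 1543 CPM without Esrrb and 1374, 1758 and 2013 CPM without Jdp2 (log2 -0.46 ± 0.09, edgeR adjusted p = 0.00109). Both were lower on all 8 days with overlapping ranges. Cyc1 of complex III differed by -0.43 ± 0.10 (edgeR adjusted p = 0.00484) and the electron carrier Cycs by -0.50 ± 0.12 (edgeR adjusted p = 0.00744). Neither passed with limma, and Cycs did not pass in a fit of 32 libraries or with no day term. Lower members came from complex I (Ndufa9, Ndufs1), complex II (Sdhc), complex III (Uqcrc2, Uqcrfs1, Uqcrq, Cyc1), complex IV (Cox4i1, Cox5a, Cox6c) and ATP synthase (Atp5b, Atp5g1, Atp5g3). None of the 13 genes encoded by mitochondrial DNA passed (median -0.10), with 1, mt-Nd4l, at an unadjusted p of 0.05 and 1 each with DESeq2 and limma. Among them mt-Co2 and mt-Co3 were listed at 0 in most libraries of both arms. The nuclear count was 8 with no day term.

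Atp5g3, the c subunit of ATP synthase, had 145, 179 and 205 CPM without Esrrb and 186, 243 and 321 CPM without Jdp2, lower on all 8 days (log2 -0.49 ± 0.10, edgeR adjusted p = 0.00255). Its promoter is printed because it is the one among the 14 lower genes whose window holds AAGGTCA, the element that estrogen-related receptors bind. The window is chr2:73911277-73911576 on the minus strand (RefSeq, GRCm38.p6), and the capitals mark the match, which reads TGACCTT here because it lies on the other strand and begins 52 bases before the start.
Atp5g3: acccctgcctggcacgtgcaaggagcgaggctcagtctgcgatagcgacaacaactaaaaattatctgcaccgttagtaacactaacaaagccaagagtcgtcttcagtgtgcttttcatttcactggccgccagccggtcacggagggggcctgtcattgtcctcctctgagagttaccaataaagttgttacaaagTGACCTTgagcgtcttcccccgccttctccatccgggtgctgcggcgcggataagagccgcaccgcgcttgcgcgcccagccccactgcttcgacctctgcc
The match continues to the longer form TCAAGGTCA. AAGGTCA occurred in 352 of the 11446 promoters searched (3.08%) and TCAAGGTCA in 31 (0.27%), all of which hold the shorter form. In the oxidative phosphorylation list 2 of the 21 genes with a window had either form. In the same 21 windows the AP-1 element TGANTCA occurred in 3 and the CRE element TGACGTCA in 2. With 70% of that list in the table, a comparison of shares is void here too.

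Enzymes of the tricarboxylic acid cycle, which feeds the respiratory chain, showed the same direction in 9 of 18 tested, with none higher (median -0.28). Idh2, mitochondrial isocitrate dehydrogenase, had 73.1, 129 and 215 CPM without Esrrb and 229, 302 and 362 CPM without Jdp2, without overlap (log2 -1.23 ± 0.21, edgeR adjusted p = 0.000516). Ogdh and Idh3a differed by -0.60 ± 0.09 and -0.63 ± 0.10 (edgeR adjusted p = 0.000203 and 0.000395). Citrate synthase (Cs) differed by -0.13, which did not pass. The count was 5 with limma on TPM and 4 with no day term. Of 16 regulators of mitochondrial genes tested, 2 were lower and none was higher, beside 13.8% lower over all genes tested, and 11 of the 16 differences lay above 0 (median 0.17). One of the lower ones is Esrra, the ubiquitous relative of Esrrb, with 26.5, 39 and 44.8 CPM without Esrrb and 39.7, 52.8 and 76.9 CPM without Jdp2 (log2 -0.62 ± 0.13, edgeR adjusted p = 0.0033), lower on all 8 days. The other is the nuclear receptor corepressor Nrip1 (log2 -0.71 ± 0.15, edgeR adjusted p = 0.00255). The coactivators Ppargc1a and Ppargc1b differed by -0.53 and 0.26, and the third receptor, Esrrg, by 0.48, none of which passed. With no day term 1 regulator was lower, and 1 or 2 were higher with DESeq2, without day 0 or without day 6. Fatty acid oxidation had 4 lower and 1 higher of 20 (median -0.08), beside 13.8% lower and 9.82% higher over all genes tested. Its lower count fell to between 0 and 2 under most alternatives, including 0 without day 1 or day 3 and 1 without day 2, 4 or 5. Its higher count was 0 without day 2, 3, 4, 5 or 6 and 2 without day 0.

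Among 18 genes of glucose transport and glycolysis 8 were lower and none was higher without Esrrb (median -0.35). Hk1, the hexokinase of most tissues, had 20.2, 44.2 and 78.2 CPM without Esrrb and 112, 136 and 189.7 CPM without Jdp2, without overlap (log2 -1.71 ± 0.19, edgeR adjusted p = 1.53e-05). The glucose transporter Slc2a3 had 8.15, 60.9 and 142 CPM without Esrrb and 12.8, 184 and 839 CPM without Jdp2 (log2 -1.66 ± 0.16, edgeR adjusted p = 5.78e-06). Slc2a1 and the phosphofructokinase Pfkp differed by -1.23 ± 0.18 and -1.54 ± 0.22 (edgeR adjusted p = 0.000128 and 0.000124). Ldha, lactate dehydrogenase, and Hk2 did not pass (log2 0.23 and -0.14). The glycolysis count was 5 without day 2 and in a fit of 32 libraries, 4 on days 3 to 7 and 2 with no day term. Cholesterol synthesis had 8 of 19 lower and none higher (median -0.29). Msmo1, a sterol methyl oxidase, had 30.5, 69.9 and 106 CPM without Esrrb and 63.1, 153 and 218 CPM without Jdp2 (log2 -0.93 ± 0.16, edgeR adjusted p = 0.000657). Dhcr7, which makes cholesterol in the last step, differed by -0.93 ± 0.16 (edgeR adjusted p = 0.000683). The cholesterol count was 5 in the fit of 32 libraries and 3 with no day term.

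Antioxidant genes regulated by NRF2 had the largest share of lower members of the lists with 10 or more tested members, 16 of 20, with none higher (median -0.65). Nfe2l2, which encodes NRF2, had 78.8, 92.1 and 125 CPM without Esrrb and 133, 149 and 195 CPM without Jdp2, without overlap (log2 -0.76 ± 0.11, edgeR adjusted p = 0.000178). Srxn1, sulfiredoxin, had 10.6, 21.1 and 43.3 CPM without Esrrb and 34.5, 80.8 and 190.2 CPM without Jdp2 (log2 -1.80 ± 0.17, edgeR adjusted p = 3.74e-06). Osgin1, an oxidative stress response gene, had 0, 1.98 and 5.7 CPM without Esrrb and 3.83, 15.4 and 29.3 CPM without Jdp2 (log2 -2.92 ± 0.46, edgeR adjusted p = 0.000284). Both were lower on all 8 days. Gpx4, the lipid peroxide reductase, had 217, 249.6 and 617 CPM without Esrrb and 397, 529 and 720.3 CPM without Jdp2 (log2 -0.94 ± 0.17, edgeR adjusted p = 0.000752). Hmox1, Gclc, Cat and Tkt did not pass. The lower count was 9 without day 1 and without day 2, 8 on days 3 to 7 and 7 with no day term.

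Among 18 Wnt targets 11 were higher and 1 was lower without Esrrb (median 0.72). Wif1, a secreted Wnt antagonist, had 93.5, 126 and 249 CPM without Esrrb and 9.71, 22.1 and 30.2 CPM without Jdp2, without overlap (log2 2.73 ± 0.18, edgeR adjusted p = 1.68e-07). Nkd2, a feedback inhibitor of Dishevelled, had 5.7, 39.5 and 156 CPM without Esrrb and 4.19, 7.18 and 11.3 CPM without Jdp2, higher on 7 of 8 days (log2 2.79 ± 0.38, edgeR adjusted p = 7.95e-05). Lef1, a transcription factor of the pathway, had 5.7, 42.9 and 85.9 CPM without Esrrb and 7.29, 11.8 and 17.7 CPM without Jdp2 (log2 1.84 ± 0.32, edgeR adjusted p = 0.000604). Axin2, a feedback gene of most cell types that receive the signal, had 3.26, 188 and 261 CPM without Esrrb and 10.3, 79.1 and 119.5 CPM without Jdp2 (log2 1.16 ± 0.21, edgeR adjusted p = 0.00082). All 3 of these last genes were lower without Esrrb on day 0 and higher on the other 7 days. The day 0 library without Esrrb lay within the other arm's range for Nkd2 and below every library of the other arm for Lef1 and Axin2. The Lef1 call was lost with limma. Several of the higher members, such as Wif1, Nkd1, Nkd2, Notum, Apcdd1 and Axin2, encode inhibitors of the pathway. Lgr5, a receptor for R-spondins, was the member that was lower (log2 -1.29 ± 0.36, edgeR adjusted p = 0.0159). The higher count was 7 in the fit of 32 libraries and 3 with no day term.

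Among 16 BMP targets 7 were higher and 2 were lower without Esrrb (median 0.58), beside 9.82% higher and 13.8% lower over all genes tested. Msx1, a homeobox gene of mesenchyme, had 61.1, 210.3 and 262 CPM without Esrrb and 23.7, 37.3 and 49.2 CPM without Jdp2, without overlap (log2 2.42 ± 0.16, edgeR adjusted p = 1.86e-07). Smad6, an inhibitory Smad, had 30.8, 46 and 112 CPM without Esrrb and 7.53, 14.3 and 126 CPM without Jdp2 (log2 1.26 ± 0.23, edgeR adjusted p = 0.00108). Nog, the BMP antagonist noggin, had 8.97, 14.1 and 46.5 CPM without Esrrb and 2.79, 5.93 and 11.5 CPM without Jdp2 (log2 1.54 ± 0.27, edgeR adjusted p = 0.000686). Id2, Id3 and Msx2 did not pass, at 0.31, -0.11 and -0.47. The higher count was 2 with no day term and the lower count 0. The 2 lower members, Smad7 and Grem1, fell to 0 or 1 when day 1, 2, 3, 4 or 5 was left out.

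Among 13 cartilage and bone markers 6 were higher and 1 was lower (median 0.70), and their summed level was 199 to 672 CPM without Esrrb and 132 to 278 CPM without Jdp2. Sp7, the osteoblast factor osterix, had 2.44, 50.9 and 85.8 CPM without Esrrb and 0, 1.87 and 4.51 CPM without Jdp2 (log2 4.45 ± 0.25, edgeR adjusted p = 3.8e-08). Col9a1, a cartilage collagen chain, had 7.33, 218 and 424 CPM without Esrrb and 1.68, 15 and 27.6 CPM without Jdp2 (log2 3.74 ± 0.19, edgeR adjusted p = 1.35e-08). In Sp7 the day 0 library without Esrrb was the low one and the other 7 lay above every library without Jdp2, and in Col9a1 the libraries of day 0 and day 1 without Esrrb lay within the other arm's range. Comp, Matn1, Sox5 and Dlx5 were the other higher members. Runx2, which acts upstream of Sp7 in osteoblasts, was lower (log2 -1.15 ± 0.20, edgeR adjusted p = 0.000698), and Sox9, Acan and Col2a1 did not pass (0.02, -0.08 and 0.01). Bglap and Ibsp, genes of mature osteoblasts, had 1 and 4 counts in all without Esrrb and 0 and 3 without Jdp2.

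Fibroblast and mesenchymal genes split, with 9 of 24 higher and 5 lower without Esrrb (median 0.38). All 24 were detected, and their summed level was 4216 to 24110 CPM without Esrrb and 9304 to 30950 CPM without Jdp2, highest on day 0 in both arms. Higher members were the transcription factors Snai2, Twist1, Twist2 and Zeb1, the collagens Col6a1, Col6a2 and Col1a2, and Thy1 and Pdgfrb. Snai2, a repressor of epithelial genes, had 18.8, 29 and 204 CPM without Esrrb and 5.65, 9.82 and 28.2 CPM without Jdp2 (log2 2.14 ± 0.32, edgeR adjusted p = 0.0002). Col6a2 had 35.3, 73.9 and 519 CPM without Esrrb and 12, 16.3 and 154 CPM without Jdp2 (log2 2.11 ± 0.20, edgeR adjusted p = 4.43e-06). Both were higher on all 8 days. Lower members were Vim, Fn1, Fbln2, Col5a1 and Zeb2. Vim, the intermediate filament vimentin, had 348, 404 and 3201 CPM without Esrrb and 1220, 1762 and 3976 CPM without Jdp2, lower on all 8 days (log2 -1.74 ± 0.18, edgeR adjusted p = 7.81e-06). These counts were 4 and 2 with no day term.

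Among 28 cell cycle genes 8 were higher and none was lower without Esrrb, by small amounts (median 0.24). The members were 5 subunits of the replicative helicase, Mcm2, Mcm3, Mcm4, Mcm6 and Mcm7, with Top2a, Aurkb and Bub1b. Mcm3 had 139, 190 and 272 CPM without Esrrb and 85.6, 126 and 169.9 CPM without Jdp2 (log2 0.64 ± 0.14, edgeR adjusted p = 0.003). This count rested on single days: it was 5 without day 2, 2 without day 3, 3 without day 4 and 4 without day 5, and 1 in the fit of 32 libraries, 3 with limma and 4 with no day term. Mki67 and Cdk1 did not pass (log2 0.20 and 0.17). Of 20 p53 and senescence genes 7 were lower and 1 was higher (median -0.30). Cdkn2b, a cell cycle inhibitor, had 3.59, 8.52 and 22 CPM without Esrrb and 20.6, 32.6 and 36.6 CPM without Jdp2 (log2 -1.73 ± 0.26, edgeR adjusted p = 0.00022), its neighbour Cdkn2a differed by -0.75 ± 0.21 (edgeR adjusted p = 0.0153), and Cdkn1a did not pass (-0.19). With no day term 1 was lower. The ATF4 and unfolded protein list had 5 lower and 2 higher of 20, beside 13.8% lower and 9.82% higher over all genes tested. Its lower count was 2 without day 1, 3 or 4 and 3 without day 2 or 7, and its higher count was 1 without any of days 0, 1, 3, 4, 5 and 6. Xbp1 of that list did not overlap, with 32.1, 45.9 and 69.3 CPM without Esrrb and 75.3, 102 and 161 CPM without Jdp2 (log2 -1.15 ± 0.18, edgeR adjusted p = 0.000337). Interferon response genes had 1 higher (Bst2) and 1 lower (Cxcl10) of 21, below both of these shares over all genes. Bst2 lost its call without day 1, 2, 3 or 6.

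The lists of markers of other cell types are small, and their counts stand beside 9.82% higher and 13.8% lower over all genes tested. Of 6 red blood cell genes 3 were lower and none was higher. The summed level of that list ran from 0 to 15.9 CPM without Esrrb and from 1.21 to 62.6 CPM without Jdp2, and Hba-a1 had 0, 2.13 and 3.59 CPM without Esrrb and 0, 16.7 and 33.9 CPM without Jdp2 (log2 -3.13 ± 0.42, edgeR adjusted p = 9.27e-05). Hba-a2 and Hba-x were the other lower members, and Hba-a1 and Hba-a2 are near-identical copies whose split is uncertain. The beta globin gene Hbb-bs had 0 counts in all without Esrrb and 19 without Jdp2. Of 15 endothelial markers 2 were higher (Sox18, Cldn5) and 3 lower (Flt1, Sox17, Cdh5), with a summed level of 179.5 to 599.6 CPM without Esrrb and 277 to 608 CPM without Jdp2. Flt1, a VEGF receptor, had 2.3, 15.8 and 118 CPM without Esrrb and 86.4, 134 and 187 CPM without Jdp2 (log2 -2.81 ± 0.32, edgeR adjusted p = 2.09e-05). In the trophoblast list Gata2 was higher without overlap, with 62.6, 78.5 and 142 CPM without Esrrb and 13.2, 17.1 and 45.5 CPM without Jdp2 (log2 1.94 ± 0.24, edgeR adjusted p = 3.97e-05), while Tead4, Eomes and Hand1 were lower. No macrophage gene of 9 passed, with a summed level of 6.43 to 30.2 CPM without Esrrb and 8.36 to 37.2 CPM without Jdp2. No germ line gene of 4 and no sex-linked gene of 5 passed either, and none of these 3 lists had a member at an unadjusted p of 0.05 or a call with DESeq2 or limma. The muscle list had 1 of 9 lower (Actc1, not without day 6 or 7; 2 without day 1). The neural list had 1 of 7 higher (Map2) and 2 lower (Nes, Tubb3), a lower count that was 1 without day 3, 4 or 5 and 0 without day 6. The keratinocyte list had 2 of 6 higher (Krt5, Lor) and 1 lower (Sfn), and the adipocyte list 1 of 5 higher (Cd36). Neurog2, Olig2, Plin1, Lep and Prl3d1 were at 0 counts in all 16 libraries. The part of these cell types in the results above was not tested.

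Outside the lists, the named genes are those with the largest difference, the same sign on all 8 days and a mean of at least 20 CPM in the higher arm. Higher without Esrrb was Col8a2, a short-chain collagen of basement membranes, with 64.4, 199 and 491 CPM without Esrrb and 0, 5.03 and 11.8 CPM without Jdp2 (log2 5.36 ± 0.47, edgeR adjusted p = 2.41e-06), without overlap. Lrrc4b, a synaptic adhesion protein, had 0.815, 67 and 151 CPM without Esrrb and 0, 0.822 and 7.66 CPM without Jdp2 (log2 4.72 ± 0.35, edgeR adjusted p = 4.56e-07). Car14, a membrane carbonic anhydrase, and Gfra2, a receptor for neurturin, did not overlap, with differences of 3.98 ± 0.52 and 3.58 ± 0.32 (edgeR adjusted p = 6.05e-05 and 2.57e-06). The G protein subunit Gng8 differed by 3.71 ± 0.51 (edgeR adjusted p = 9.28e-05). Dcpp1, Dcpp2 and Dcpp3, secreted proteins of near-identical sequence, differed by 4.26, 4.25 and 3.93, and reads cannot be assigned among them with certainty. Sp7 and Col9a1, described above, complete the 10.

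Lower without Esrrb were genes of several kinds. Efhd1, a calcium-binding protein of mitochondria, had 0, 0.326 and 2.39 CPM without Esrrb and 1.21, 53.6 and 77.1 CPM without Jdp2 (log2 -5.98 ± 0.40, edgeR adjusted p = 1.68e-07). Clu, the secreted chaperone clusterin, had 29.3, 75.4 and 256 CPM without Esrrb and 265, 2456 and 3507 CPM without Jdp2, without overlap (log2 -4.45 ± 0.29, edgeR adjusted p = 1.64e-07). Fabp3, a fatty acid carrier of heart and muscle, had 2.88, 4.96 and 8.64 CPM without Esrrb and 16.8, 144 and 181 CPM without Jdp2, again without overlap (log2 -4.26 ± 0.37, edgeR adjusted p = 2.14e-06). Being lower on all 8 days was a condition for naming these genes. On day 0 Efhd1 had 0 CPM without Esrrb and 1.21 CPM without Jdp2, which is a few counts. Wnt7b, a Wnt ligand, had 1.75, 13.2 and 75.3 CPM without Esrrb and 71.8, 366 and 833 CPM without Jdp2 (log2 -4.57 ± 0.44, edgeR adjusted p = 4.41e-06), so that this ligand and the Wnt target list differed in opposite directions. Pglyrp1, a peptidoglycan-binding protein of innate immunity, differed by -5.14 ± 0.24, and the membrane transporter Slc4a11 by -4.73 ± 0.45 (edgeR adjusted p = 4.54e-09 and 4.06e-06). Coro6, a coronin, and Sprr1a, a cornified envelope protein, did not overlap (log2 -5.09 ± 0.36 and -4.35 ± 0.33, edgeR adjusted p = 2.51e-07 and 5.53e-07). AU015836 and the matrix protein Spon2 complete the 10, at -5.70 ± 0.33 and -4.11 ± 0.33 (edgeR adjusted p = 5.26e-08 and 1.05e-06).

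**Figure D4:**
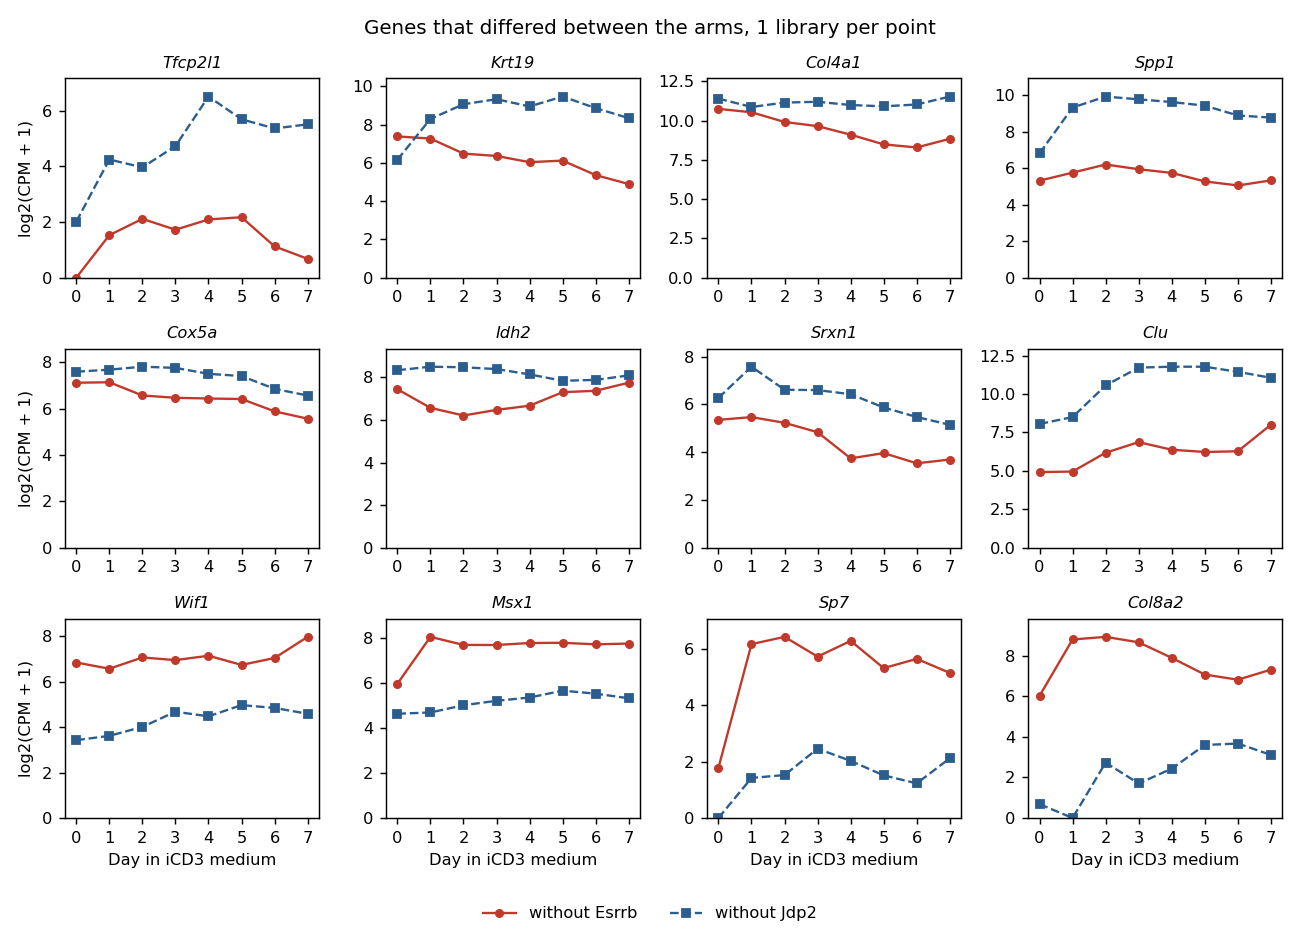
Levels of 12 genes (log2 of CPM + 1) against the day in iCD3 medium, 1 library per point, in the set without Esrrb (red circles) and the set without Jdp2 (blue squares). The upper 8 genes, Tfcp2l1 to Clu, were lower without Esrrb, with Clu at a median of 75.4 CPM without Esrrb and 2456 CPM without Jdp2; the lower 4, Wif1 to Col8a2, were higher.

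The size of the difference changed steadily with day in few genes. The slope of the difference against day passed in 264 genes (1.59%), of which 70 (0.422%) were positive, so that the arm without Esrrb gained on the other with each day, and 194 (1.17%) were negative. These counts depended on single days, being 400 without day 0, 107 without day 1, 154 without day 2, 105 without day 6 and 404 without day 7. On days 3 to 7 there were 108 positive and 104 negative slopes, and limma on TPM called none, with 1825 at an unadjusted p of 0.05, against 259 for DESeq2. In the lists with most slopes, 6 of 25 pluripotency genes, 6 of 18 primitive endoderm genes, 5 of 23 AP-1 responsive genes and 5 of 19 SRF and YAP targets had a negative slope, while 6 of 24 fibroblast genes had a positive slope and 3 a negative one.

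The levels of Pou5f1 and Lin28a crossed between the arms. Pou5f1, the gene for Oct4 and the source of the reporter, had 3.26, 19.5, 23.3, 6.9, 20.9, 11.7, 11.8 and 6.58 CPM on days 0 to 7 without Esrrb, against 0.607, 0.561, 0.471, 2.26, 7.49, 24.6, 47.8 and 76.6 CPM without Jdp2. It was higher without Esrrb from day 0 to day 4 and lower from day 5 on, and the difference over the week did not pass (log2 0.21), while its slope was -1.43 ± 0.14 per day (SE; edgeR adjusted p = 0.000103). Lin28a, an RNA-binding protein of pluripotent cells, had 0, 2.51, 18.6, 42, 63.9, 70.1, 22.4 and 24.5 CPM on days 0 to 7 without Esrrb, against 0, 0, 0, 1.61, 3.08, 12.5, 41.4 and 76.1 CPM without Jdp2. It crossed between day 5 and day 6, with a slope of -1.85 ± 0.17 (edgeR adjusted p = 0.000103). Nanog, Klf2, Tdh and Cdh1 were the other members with a negative slope, of -1.69 ± 0.35, -0.59 ± 0.12, -0.74 ± 0.12 and -0.83 ± 0.08 per day (edgeR adjusted p = 0.0294, 0.0209, 0.00788 and 0.000104). The slope of Nanog no longer passed without day 2, 4, 6 or 7, at -1.62 to -1.31, and that of Klf2 without day 1, 2, 6 or 7, at -0.55 to -0.53. At this depth 1 count is 0.605 to 0.726 CPM without Esrrb and 0.3 to 0.536 CPM without Jdp2, so the lowest values are a few counts.

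Fibroblast and stress genes moved apart as well. Ccl2, a monocyte chemokine, had a slope of -1.01 ± 0.14 per day, with 485 CPM without Esrrb and 379 CPM without Jdp2 on day 0 and 1.3 CPM without Esrrb and 84.2 CPM without Jdp2 on day 4 (edgeR adjusted p = 0.00228). Tagln, an actin-binding protein of smooth muscle and fibroblasts, had a slope of -0.58 ± 0.07 (edgeR adjusted p = 0.000976), and the collagen chains Col4a1 and Col4a2 had -0.36 ± 0.04 and -0.31 ± 0.05 (edgeR adjusted p = 0.000366 and 0.00489). Positive slopes among mesenchymal genes included those of Snai2, Twist1 and Twist2, at 0.38 ± 0.09, 0.45 ± 0.07 and 0.37 ± 0.05 (edgeR adjusted p = 0.0433, 0.00616 and 0.00228). Other positive slopes were those of Psd2, an exchange factor for Arf6 (0.96 ± 0.10, edgeR adjusted p = 0.000364), and Tbx2, a T-box repressor (0.50 ± 0.07, edgeR adjusted p = 0.00228). Tbx2 was lower without Esrrb on days 0 to 2 and higher from day 3 on. Pyy, a gut hormone, Il21r, a cytokine receptor, the receptor phosphatase Ptpru and the adhesion protein Clmp completed the 6 largest positive slopes, at 1.09 ± 0.18, 0.75 ± 0.16, 0.57 ± 0.12 and 0.45 ± 0.09 (edgeR adjusted p = 0.00788, 0.0302, 0.0212 and 0.0158). For Pyy and Il21r the slope came with a fall in the arm without Jdp2. Pyy had 370.8 CPM on day 2 and 29.2 CPM on day 7 there, against 0 and 1.79 CPM without Esrrb. Il21r had 93.2 and 1.91 CPM on these days without Jdp2, against 4.65 and 8.37 CPM without Esrrb. Sfn, the 14-3-3 sigma protein, the sodium channel Scn11a and haptoglobin (Hp) had negative slopes of -1.35 ± 0.21, -1.37 ± 0.27 and -2.36 ± 0.53 (edgeR adjusted p = 0.00497, 0.0181 and 0.0395), of which those of Sfn and Hp turned positive on days 3 to 7, at 0.246 and 0.205. Several of these calls rested on single days. The slope of Snai2 no longer passed without day 0, 1, 3, 5 or 6 (0.32 to 0.4), that of Pyy without day 6 (1.02), that of Il21r without day 1, 2, 3 or 7 (0.51 to 0.8), that of Ptpru without day 6 or 7 (0.5 and 0.42) and that of Clmp without day 1, 6 or 7 (0.39 to 0.44). Scn11a did not pass without day 2, 3 or 6 (-1.24 to -1.19), nor Hp without day 2, where its slope was -0.69, or without day 4, 5 or 6 (-2.47 to -2.14). The slope of mt-Co2 was -4.72 ± 0.24 (edgeR adjusted p = 5.77e-05), from a gene listed at 0 in most libraries.

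**Figure D5:**
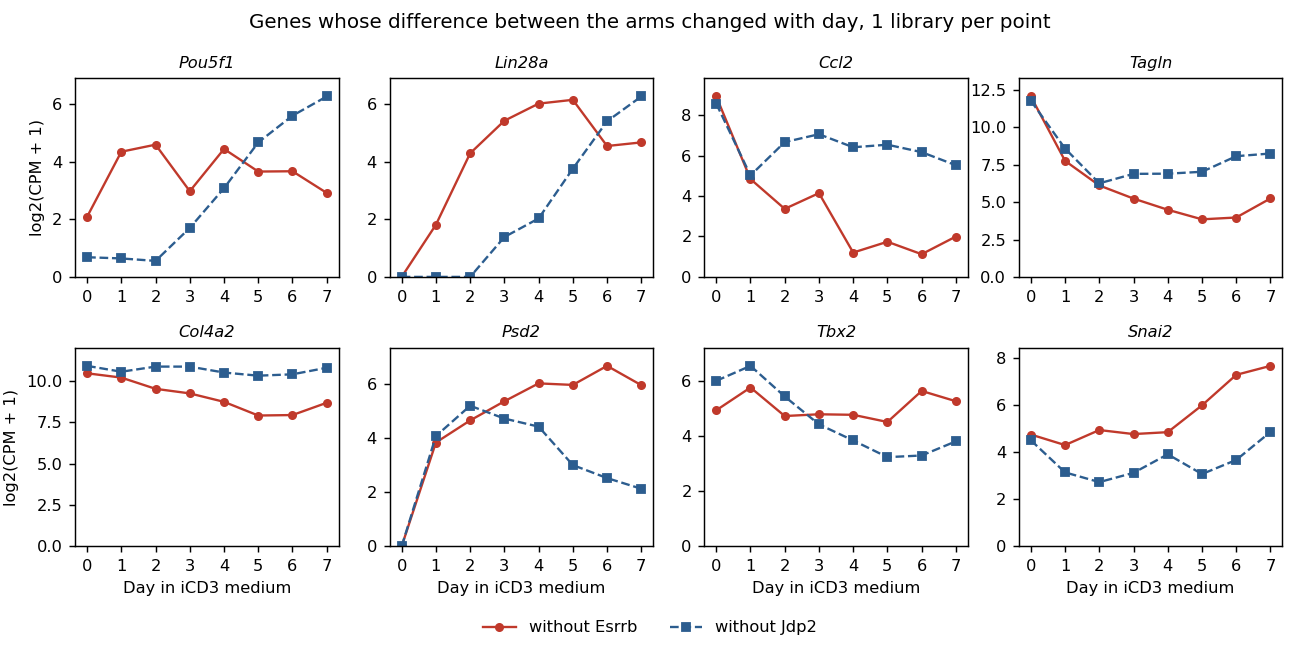
Levels of 8 genes whose difference between the arms changed with day (log2 of CPM + 1), 1 library per point, in the set without Esrrb (red circles) and the set without Jdp2 (blue squares). Pou5f1 is above the other arm without Esrrb up to day 4 (20.9 against 7.49 CPM) and below it on day 7 (6.58 against 76.6 CPM), Lin28a crosses likewise, and Psd2, Tbx2 and Snai2 separate upwards without Esrrb.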

How the data were processed

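RNA from 16 libraries of mouse fibroblasts under reprogramming was analysed, 8 per arm, 1 per day. Each library has 1 deposited gene table. Its column of expected counts gives the authors' estimated counts, without normalization, per the file headers, and 16.3% of the values above 0 are not whole. The deposited TPM column was used in 1 alternative, and the length columns, other values per the file headers, served for the implied fragment length. The submitters' processing notes name bcl2fastq, Bowtie2, RSEM and the mm10 build, with no versions, and the annotation release is not given in the sources used here. RSEM divides reads shared by paralogs and by overlapping genes, so such genes are uncertain, and the use of strand is not given in the sources used here. Of 54752 identifiers 54723 were matched to a symbol, and 102 that share a symbol kept their identifier.

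Expected counts were rounded and fitted in edgeR 4.0.16 under R 4.3.3. Scaling was by TMM, a gene had to reach 1 CPM in 3 of the 16 libraries, the model held day as a factor and arm, and tests were two-sided quasi-likelihood F tests. The threshold was an adjusted p (Benjamini-Hochberg, all genes tested) under 0.05. A separate term, arm by linear day, gave the slope. Depth was 1377656 to 3333579 counts, and counting error is the only error that depth covers. On simulated counts of these libraries, 167 of 200 genes with a true log2 arm difference of 1 and 200 of 200 with 2 were recovered among 15937 and 15939 genes tested. For the slope, 99 of 200 were recovered at 0.25 per day and 184 of 200 at 0.5, among 15968 and 15957. False calls numbered 7 and 12 for the arm difference and 5 and 5 for the slope. The changed genes were drawn from those with a mean of 5 CPM or more. The simulated counts had no day effect and independent noise at the fitted trend of dispersion. These shares therefore do not speak for genes of lower level or for serial cultures.

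Samples were grouped by title. Same-day libraries of the arms deviated together from the arm means (r = 0.195 to 0.634 over genes). For days 2, 5 and 6 without Esrrb the closest library without Jdp2 was that of day 3, 6 and 7. For the other days it was that of the same day. The day is a label, and the day term pairs same-day libraries on that ground. The members and gene lists were chosen with earlier results of these data known. Named genes are the 4 factors, up to 4 members per list with the largest difference past the threshold and a mean of 5 CPM in the higher arm, the 10 largest differences each way and the 6 largest slopes each way at a mean of 20 CPM, without predicted genes. Other list members are given by value, and those added were chosen after their values were seen. A few genes are counted but not reported here by name. Alternatives were the Wald test of DESeq2 1.42.0, its size factors in edgeR, no filter, limma 3.58.1 on log2(TPM + 1), no day term, days 3 to 7, a fit of the 32 libraries of the 4 arms that lack a factor, thinning to 1200000 counts, an added arm slope, log2(day + 1) for the slope, and leaving out each day. The RefSeq promoter table (GRCm38.p6) matched 11446 of 14513 tested coding genes. The comparison with JEGS libraries and the motif shares in the AP-1 list were chosen after seeing the data. Files were read and plots drawn with Python 3.11.15 (numpy 2.4.6, pandas 2.3.3, matplotlib 3.10.9).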

Additional observations from a re-analysis of the deposited data

Results flagged for a closer look

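In 15 of 187 named genes the difference between the arms on 1 day stood apart from the other 7 days. The gap to the nearest of the others, as a share of the range, was above Dixon's 95% critical value for 8 values, which chance passes in about 1 in 20 genes. On day 0 Vim differed by -0.31 (other days -2.27 to -1.44), Spp1 by -1.5 (-4.16 to -3.45), Cxcl1 by 0.25 (-2.86 to -1.66), Col9a1 by 1.27 (3.02 to 4.39) and Map2 by -0.58 (0.33 to 1.04) on the log2 scale, and Klf5 by -0.18 (-2.13 to -1.46), Acan by -2.36 (-0.46 to 1.01), Axin2 by -1.4 (0.69 to 1.93) and Junb by 0.96 (-0.9 to -0.19). On day 1 Id3 differed by -1.88 (-0.31 to 0.64). On day 7 Glis1 differed by 2.1 (other days 0.3 to 1.1), Dppa5a by -5.22 (-2.34 to 0), Fosb by 0.11 (-2.0 to -1.07), Nrip1 by 0.25 (-1.15 to -0.61) and Esrp1 by -2.41 (0 to 1.53).

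Both missing factors had a library above its arm. Esrrb reached 60.49 CPM on day 2 without Esrrb, against 7.17 to 19.4 CPM on the other days, and Jdp2 reached 47.97 CPM on day 0 without Jdp2, against 10.5 to 21.2 CPM.

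The slope of the difference against day passed in 37 named genes with edgeR and in none of them with limma on TPM. Among list members the slope per day was -0.36 for Col4a1, -0.31 for Col4a2, -0.57 for the keratin Krt19, 0.38 for Snai2, -1.01 for Ccl2, -0.58 for Tagln, -0.9 for Osgin1, -0.31 for Ccn2, 0.37 for Id2, 0.45 for Twist1 and 0.37 for Twist2. For the pluripotency genes Cdh1, Klf2, Nanog and Tdh it was -0.83, -0.59, -1.69 and -0.74. It was -0.87 for the mesoderm factor T, -0.56 for the endothelial factor Sox18, -1.18 for the cardiac actin Actc1, -1.35 for Sfn, -1.37 for the trophoblast and mesoderm factor Hand1 and -0.33 for Gata2. Among genes with the largest difference it was -0.78 for Col8a2, -0.98, -1.07 and -1.08 for Dcpp1, Dcpp2 and Dcpp3, and -0.69 for Wnt7b. The largest negative slopes were -4.72 for mt-Co2, -2.36 for Hp, -1.85 for Lin28a, -1.43 for Pou5f1 and -1.37 for Scn11a. The largest positive ones were 1.09 for Pyy, 0.96 for Psd2, 0.75 for Il21r, 0.57 for Ptpru, 0.5 for Tbx2 and 0.45 for Clmp.

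Many of these slopes did not pass when 1 day was left out. That of T was lost without any 1 of days 1 to 6 (-0.92 to -0.77), that of Id2 without day 0, 1, 2 or 6 (0.32 to 0.37) and that of Hand1 without day 0, 1, 5 or 6 (-1.55 to -1.28). Actc1 was lost without day 0, 6 or 7, with a slope of -2.1 without day 0, and Wnt7b without day 0, 1 or 5, with -0.43 without day 0. Gata2 did not pass without day 1, 2 or 6 (-0.3 to -0.29), Osgin1 without day 0, 5 or 6 (-0.87 to -0.8), Col8a2 without day 1 or 6 (-0.67 and -0.69) and Krt19 without day 1 (-0.57).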

How the results depend on the processing

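The number of genes that differed was 3923, and stayed within 1.5 times of that, with every alternative but one. With no day term, that is without the pairing of same-day libraries as a replicate block, 2103 genes passed, 861 higher and 1242 lower. Leaving out 1 day gave 2973 to 4387 genes, 1169 to 1942 of them higher and 1804 to 2445 lower. Of 3170 values of named genes under 17 alternatives, 2945 kept their side of the threshold, 183 no longer passed, 42 newly passed and none that had been called changed sign. The slope was less stable. Its 264 calls became 105 to 404 when 1 day was left out, with 24 to 145 positive and 81 to 307 negative. No filter gave 107 positive slopes, days 3 to 7 gave 108 positive and 104 negative, and limma on TPM gave 0 in all, 0 positive and 0 negative (1825, 766 and 1059 at an unadjusted p of 0.05). On days 3 to 7 the slopes of Sfn and Hp turned to 0.246 and 0.205. The cause of these changes was not tested. Depth limits genes near 1 CPM, where a value is 1 to 3 counts, as for Dppa5a and Nr0b1, and small differences such as those of the respiratory chain rest on 1 culture series per arm.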

Other observations

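The 3 JEGS libraries, of days 2, 4 and 6, received all 4 factors. They carry a repeat mark that the other libraries lack, so a batch and the added factor cannot be told apart, and they are given as values with no test. They had 1266379 to 1682386 counts and fragments of 199.5 to 202.9 bases. Those ranges overlap the arm without Esrrb (1377656 to 1651712 counts, 201.6 to 205.7 bases) and lie below every library without Jdp2. The part of depth and fragment length in the nearness counts was not tested. For each gene the mean JEGS level over these days was nearer to the arm without Esrrb in 7220 of 16592 genes (43.5%) and nearer to the arm without Jdp2 in the others. For oxidative phosphorylation 1 of 30 genes lay nearer to the arm without Esrrb and 29 lay nearer to the arm without Jdp2. For the tricarboxylic acid cycle these numbers were 2 and 16, and for NRF2 antioxidant genes 5 and 15. Primitive endoderm markers showed the other order, with 13 nearer to the arm without Esrrb and 5 nearer to the arm without Jdp2, as did SRF and YAP targets with 13 and 6. AP-1 responsive genes had 8 nearer to the arm without Esrrb and 15 nearer to the arm without Jdp2.

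Single genes show the same mix. On a scale fitted over all 35 libraries, Cox5a had 148 to 206 CPM and Idh2 had 176 to 445.5 CPM in JEGS. Sp7, at a median of 50.9 CPM without Esrrb, had 1.69 to 2.32 CPM in JEGS, and Wif1 had 31.9 to 55.8 CPM. Krt19 had 98.9 to 301 CPM and Tfcp2l1 had 10.1 to 144.5 CPM. Among the 10 named genes with the largest difference in each direction, JEGS lay nearer to the arm without Esrrb for 2 higher and 6 lower ones. Over all genes that passed, this held for 506 of 1630 higher genes (31%) and 1008 of 2293 lower genes (44%).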
